A study of Homo sapiens with 8 samples.

Results

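Growth factor signals reach the nucleus through the RAS-RAF-MEK-ERK kinase cascade, and cells limit that signal with proteins whose genes the cascade itself switches on. The dual-specificity phosphatases (DUSPs) remove phosphate from the activating threonine and tyrosine of MAP kinases, while Sprouty and Spred proteins act further upstream, between receptor tyrosine kinases and RAF. Genes of this feedback class are commonly read as a record of ERK output. The cells used, HCT116, are a long-established line from a human colorectal carcinoma. Transcription of 10 genes for MAP kinase phosphatases and Sprouty or Spred proteins is described here: *DUSP1*, *DUSP4*, *DUSP5*, *DUSP6*, *DUSP10*, *SPRY1*, *SPRY2*, *SPRY4*, *SPRED1* and *PTPRR*. They were taken by gene symbol from 23193 genes in the count tables. Whether each of the 10 records ERK output in these cells was not tested.

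The measurements came from PRO-seq, which counts reads from RNA polymerases that are engaged on DNA and able to extend their transcript in isolated nuclei. Wild-type (WT) and HIF1A-/- HCT116 cells were kept in normoxia or placed in 1% O2 for 90 min, with the vehicle DMSO present in all cultures. Each of the 4 groups had 2 libraries from independent biological replicates, 8 in all. HIF1A encodes the oxygen-regulated subunit of the transcription factor HIF1, and the HIF1A-/- line was made from HCT116 by AAV-mediated homologous recombination that removed an internal piece of the coding exons. Whether that line is 1 clone is not given in the sources used here, so that a difference between genotypes and a difference between lines cannot be told apart.

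Gene body totals were 18125234 to 23622392 reads per library and TSS totals 2783581 to 5966348, with the lowest TSS totals in both HIF1A-/- replicate 1 libraries. *HIF1A* gene body signal was 138 and 150 in normoxic and 130 and 161 in hypoxic WT cells, against 165 and 137 in normoxic and 175 and 158 in hypoxic HIF1A-/- cells, in normalised counts per 1000000 reads (CPM). Because the removed piece is small and internal, this signal does not test the genotype. All 6 epithelial marker genes were transcribed in every library, while the 7 markers of blood, fibroblast and endothelial cells did not exceed 0.066 reads per kilobase and 1000000 reads (RPKM). Gene body signal leaves out about the first kilobase after the counted transcription start site (TSS) and runs to the end of the gene, and TSS signal covers the 551 bp from 50 bp before to 500 bp after it. The pausing index is TSS density over gene body density in RPKM, each scaled to the library total of its own region. It is therefore not a ratio of raw reads per base. A shift of a whole library between TSS and gene body reads is removed from it. Differences were tested with the edgeR quasi-likelihood test across all genes and called at a false discovery rate (FDR) of 10%. Same-numbered libraries deviated together across groups, so FDR values with the replicate number as a block are printed where they change a call of the 10 genes, and gene body calls with the block are counted for the other genes of the pathway.

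The 250 bp upstream of 3 counted starts are shown because *SPRY4* was higher in all HIF1A-/- libraries than in any WT library, and *DUSP1* and *DUSP5* hold the less common of the motifs searched. Sequences are from the GRCh37 reference on the strand of the gene, 5′ to 3′, and end at the base before the TSS. Motifs searched on both strands were the HIF core ACGTG or GCGTG, the ETS site CCGGAAG, the AP-1 site TGACTCA, the cAMP response element TGACGTCA and the SRF CArG box. Capitals mark any match.
SPRY4, chr5:141704621-141704870, minus strand: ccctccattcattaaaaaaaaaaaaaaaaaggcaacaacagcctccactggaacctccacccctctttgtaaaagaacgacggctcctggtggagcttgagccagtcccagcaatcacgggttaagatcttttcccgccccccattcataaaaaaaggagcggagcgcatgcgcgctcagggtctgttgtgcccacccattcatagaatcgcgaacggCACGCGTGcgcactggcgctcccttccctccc
DUSP1, chr5:172198204-172198453, minus strand: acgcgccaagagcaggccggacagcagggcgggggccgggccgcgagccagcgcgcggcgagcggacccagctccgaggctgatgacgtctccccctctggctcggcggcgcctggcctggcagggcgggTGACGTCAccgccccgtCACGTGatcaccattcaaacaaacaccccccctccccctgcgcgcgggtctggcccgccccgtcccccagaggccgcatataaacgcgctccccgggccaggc
DUSP5, chr10:112257374-112257623, plus strand: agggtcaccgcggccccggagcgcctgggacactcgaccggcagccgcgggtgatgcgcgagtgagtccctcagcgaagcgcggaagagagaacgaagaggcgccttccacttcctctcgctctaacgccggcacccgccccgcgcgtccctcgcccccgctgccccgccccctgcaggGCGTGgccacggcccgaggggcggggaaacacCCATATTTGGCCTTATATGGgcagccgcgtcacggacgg

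None of these 3 windows overlapped an exon annotated on the strand of the gene, although the *SPRY4* window lay within 1 longer transcript of *SPRY4*. The *DUSP1* and *SPRY4* windows each overlapped 1 other annotated gene. *DUSP1* held a cAMP response element 120 bp upstream, a motif found in 1.73% of 23193 such windows, and an ACGTG core read on both strands of one palindrome at 103 and 102 bp. *DUSP5* held a pair of CArG boxes at 39 and 29 bp, a motif found in 1.1% of windows, and a GCGTG core at 71 bp. *SPRY4* held GCGTG on both strands, overlapping, at 32 and 29 bp. Over all 10 genes, 4 windows held either HIF core (*DUSP1*, *DUSP5*, *DUSP10* and *SPRY4*), against 47% of all windows, and none held the ETS or AP-1 site, against 8.28% and 3.54%. These matches are letters in a window and were not tested as binding sites.

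The 10 genes differed widely in transcription rate. On the length-corrected scale, WT normoxia gene body density was highest for *DUSP6*, which encodes a cytoplasmic phosphatase selective for ERK, at 16.8 ± 6.66 RPKM (SD, n = 2). *DUSP1*, *SPRY4*, *DUSP5* and *DUSP4* followed between 7.96 and 8.20 RPKM, and the libraries of neighbours in that order overlapped. *SPRY2* came next at 1.95 ± 0.0144 RPKM, then *SPRED1* at 1.76 ± 0.00909, *SPRY1* at 0.546 ± 0.0867, *DUSP10* at 0.169 ± 0.0333 and *PTPRR* at 0.0119 ± 0.00445, with no overlap between neighbours from *DUSP4* downwards. In WT hypoxia, *SPRY1* density was 2.19 ± 0.00928 RPKM, above that of *SPRED1* by mean with overlapping libraries. In HIF1A-/- hypoxia *SPRY1* stood ninth of the 10, at 0.147 ± 0.0561 RPKM.

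**Figure D1:**
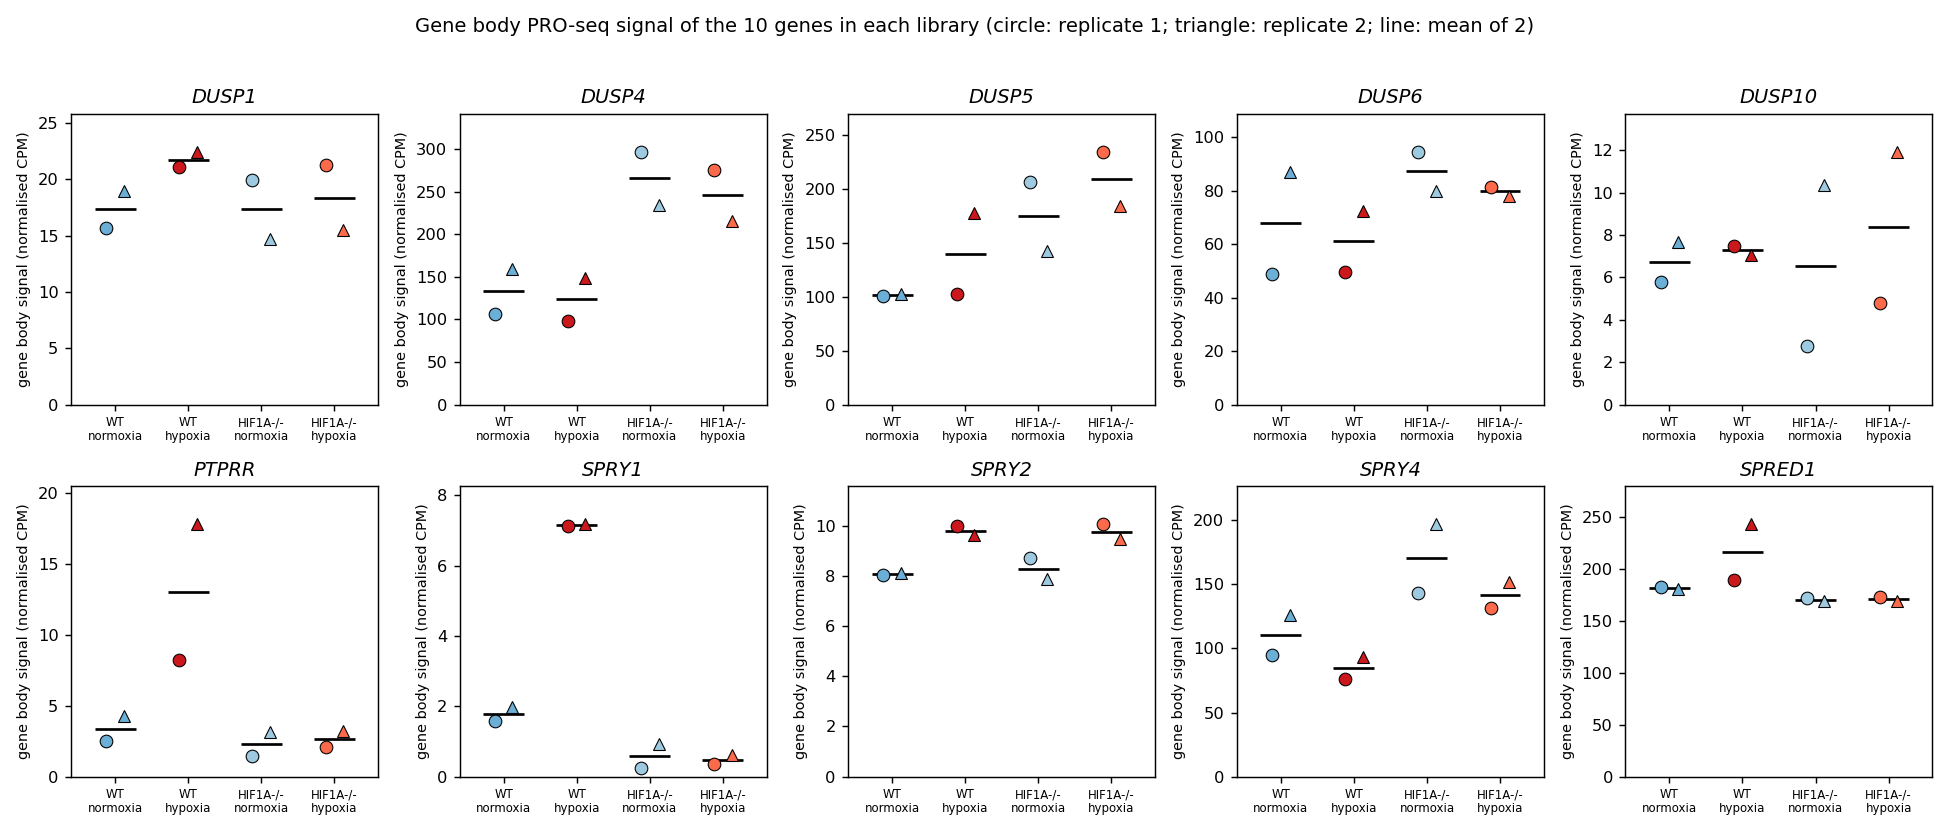
Gene body signal of the 10 genes in normalised CPM (vertical axes, linear from 0, one scale per gene) for the 4 groups on the horizontal axis; circles are replicate 1, triangles replicate 2 and lines the mean of 2. *SPRY1* and *PTPRR* stand highest in the WT hypoxia libraries, whereas *DUSP4* and *SPRY4* stand higher in all 4 HIF1A-/- libraries than in any WT library.

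*SPRY1*, which encodes a Sprouty inhibitor of receptor tyrosine kinase signalling, had the largest gene body differences between genotypes among the 10 genes. Its gene body, chr4:124321645-124324915 on the plus strand, gave 1.59 and 1.99 CPM in normoxic and 7.13 and 7.18 in hypoxic WT cells, against 0.239 and 0.920 in normoxic and 0.350 and 0.610 in hypoxic HIF1A-/- cells. Both WT hypoxia libraries lay above all other libraries, and all 4 HIF1A-/- libraries lay below the WT normoxia pair. The counts behind these values were 32 and 36, 135 and 173, 5 and 20, and 7 and 13 reads, so the HIF1A-/- values are the least precise. In hypoxia, *SPRY1* was lower in HIF1A-/- than in WT cells by 14.7-fold (log2 fold change -3.87, SE 0.583, edgeR FDR = 0.0170). The call was lost without WT hypoxia replicate 2 (FDR = 0.114) or HIF1A-/- hypoxia replicate 1 (FDR = 0.127). In these bulk libraries, fewer transcribing cells and less transcription per cell cannot be told apart. In normoxia the same comparison gave a log2 fold change of -1.60 (SE 0.571, edgeR FDR = 0.397, 0.0684 with the replicate block).

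For the WT response to hypoxia, the *SPRY1* gene body log2 fold change was 2.00 (SE 0.516), a difference that did not pass edgeR without the block (FDR = 0.502) and passed with it (FDR = 0.0233). DESeq2, the count test named in the methods of the study, gave an FDR of 0.0432 for the same change. The ratio of hypoxia to normoxia was 4.50 in WT replicate 1 and 3.61 in WT replicate 2, against 1.47 and 0.663 in HIF1A-/- cells, where the log2 fold change was -0.27 (SE 0.627, edgeR FDR = 1). The difference between the genotypes in this response was 2.27 on the log2 scale (SE 0.811, unadjusted p = 0.0234 in edgeR) and was not called, with or without the block (FDR = 1 and 0.574).

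*SPRY1* TSS signal gave a similar order of groups. It was 6.88 and 9.66 CPM in normoxic and 22.3 and 26.2 in hypoxic WT cells, against 7.60 and 4.65 in normoxic and 6.30 and 2.80 in hypoxic HIF1A-/- cells. The WT hypoxia libraries again stood above all others, but the normoxia libraries of the 2 genotypes overlapped. In hypoxia TSS signal was lower in HIF1A-/- cells by 5.49-fold (log2 fold change -2.46, SE 0.439, edgeR FDR = 0.0235), a call that was lost without WT hypoxia replicate 1 (FDR = 0.125), WT hypoxia replicate 2 (0.301) or HIF1A-/- hypoxia replicate 2 (0.179). The WT hypoxia change at the TSS was 1.56 (SE 0.403, edgeR FDR = 0.922, 0.0244 with the replicate block). In WT cells the pausing index was 25.8 and 28.9 under normoxia, 18.5 and 21.7 under hypoxia, and no *SPRY1* pausing comparison passed the test. The HIF1A-/- pausing values split by replicate, 189 and 107 in replicate 1 and 30.0 and 27.2 in replicate 2, with the high ones resting on 5 and 7 gene body reads. Of 7 distinct annotated starts of *SPRY1*, 2 lay in the counted TSS region and 0 in the gene body. The 250 bp before the counted TSS lay within 6 longer transcripts of *SPRY1*. Its TSS and gene body values may therefore take in reads from starts further upstream.

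*PTPRR* encodes a receptor-type tyrosine phosphatase that binds ERK and p38 through a kinase interaction motif and inactivates them. Its gene body, chr12:71031852-71313583 on the minus strand, is 282 kb long and thinly transcribed, with 31 to 429 reads per library. Signal was 2.48 and 4.25 CPM in normoxic and 8.24 and 17.8 in hypoxic WT cells, against 1.48 and 3.13 in normoxic and 2.1 and 3.24 in hypoxic HIF1A-/- cells. As for *SPRY1*, both WT hypoxia libraries were above all others, though they differed from each other more than 2-fold. In hypoxia *PTPRR* was lower in HIF1A-/- cells by 4.87-fold (log2 fold change -2.28, SE 0.523, edgeR FDR = 0.0745). This call was lost with library totals in place of TMM factors (FDR = 0.102) and without any 1 of 5 libraries, with the highest FDR, 0.488, without WT hypoxia replicate 2.

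The *PTPRR* change in WT cells was 1.96 on the log2 scale (SE 0.516, edgeR FDR = 0.527), 0.00282 with the replicate block and 0.0272 by DESeq2. Hypoxia to normoxia ratios were 3.33 and 4.19 in the 2 WT replicates, and 1.42 and 1.03 in HIF1A-/- cells, where the log2 fold change was 0.21 (SE 0.531, edgeR FDR = 1). The difference between genotypes in the response was 1.75 (SE 0.736, unadjusted p = 0.0452 in edgeR), with an FDR of 1, of 0.130 with the block, and of 0.0324 by DESeq2 with the block. The counted TSS of *PTPRR* had 0 reads in all 8 libraries, where 3 reads would be 0.514 to 1.09 CPM, so no TSS test or pausing index was obtained. Of 10 distinct annotated starts of *PTPRR*, 1 lay in the counted TSS region and 9 within the gene body, 131.8 to 256.4 kb downstream, so the gene body value may take in reads from starts that the TSS table did not count.

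Together, the gene bodies called lower in HIF1A-/- than in WT cells in hypoxia were 2 of 10 (*SPRY1* and *PTPRR*), against 2.79% of 16686 gene bodies tested, and none was called higher, against 1.47%. With the replicate block there were 5 calls, *SPRY1*, *PTPRR* and *SPRED1* lower and *DUSP4* and *SPRY4* higher, where the block called 28.2% of all gene bodies. DESeq2 called 4, the same as the block without *SPRED1*, against 7.82%. At an unadjusted p under 0.05 there were 5, against 15.7%. *SPRY1* was the only one of the 9 TSS regions tested to be called in this comparison without the block, against 0.664% called lower over 15212 TSS regions, and with the block 3 were called, against 14.4%. In WT hypoxia the block called 1 of the 9 TSS regions, that of *SPRY1*, against 1.01%. Library profiles most like that of *SPRY1* over the 8 libraries were those of *STAP2*, *MIF-AS1* and *GALK2* (Pearson r of log2 CPM 0.991, 0.991 and 0.990). For *PTPRR* they were *LINC00880*, *TES* and *AGTPBP1* (0.995, 0.993 and 0.993). These are descriptions over 8 points that share the same 4 groups.

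**Figure D2:**
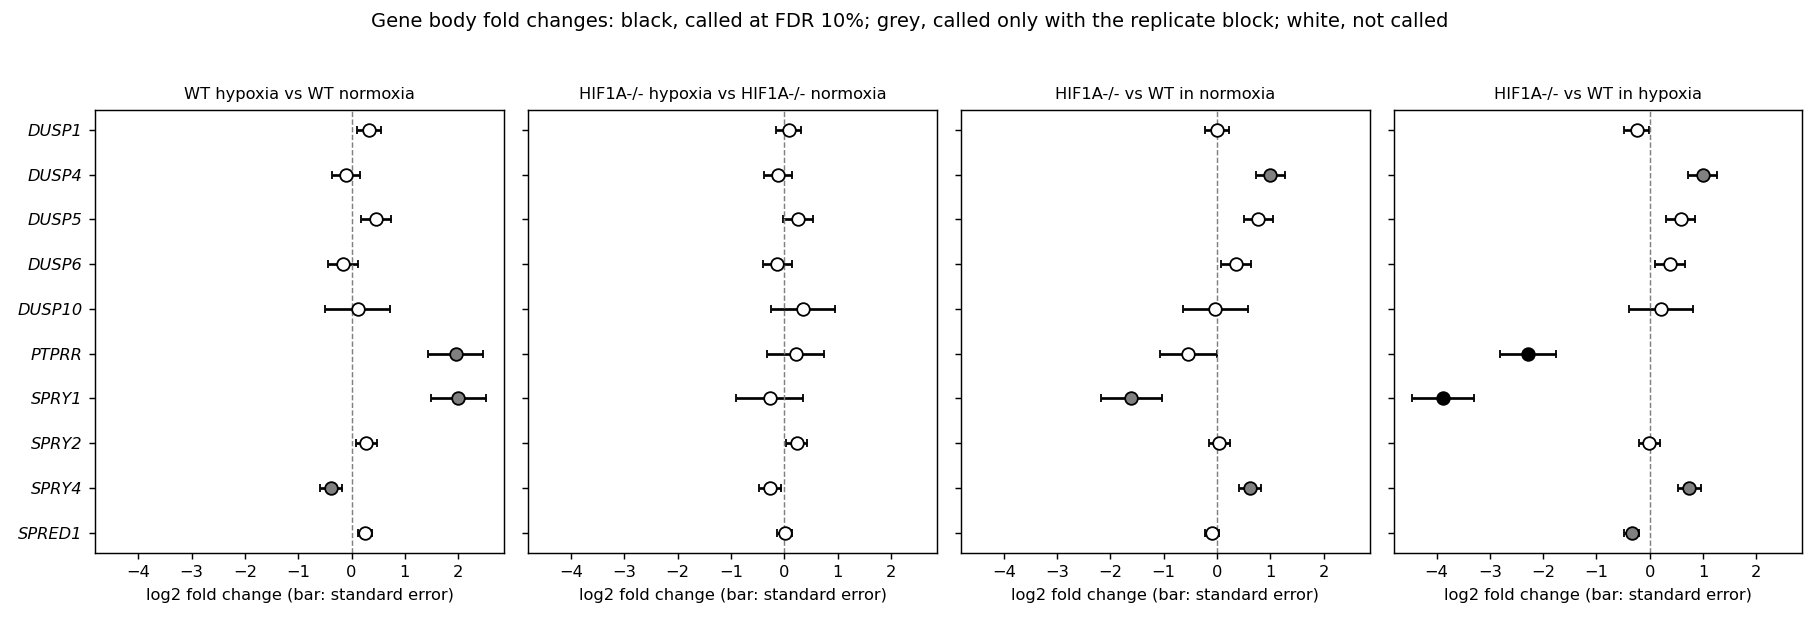
Log2 fold change of gene body signal (horizontal axis) for the 10 genes (vertical axis) in 4 comparisons; points are edgeR estimates and bars their standard errors. Only *SPRY1* and *PTPRR* in the HIF1A-/- against WT comparison in hypoxia were called without the replicate block (black), at -3.87 and -2.28; grey points were called with the block only.

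The other Sprouty genes did not follow *SPRY1*. *SPRY4*, also a feedback inhibitor of the RAS pathway, had a gene body (chr5:141689991-141703619, minus strand) with 94.8 and 126 CPM in normoxic and 76.3 and 93.2 in hypoxic WT cells, against 144 and 197 in normoxic and 132 and 152 in hypoxic HIF1A-/- cells. All 4 HIF1A-/- libraries were above all 4 WT libraries. The log2 fold change between genotypes was 0.63 in normoxia (SE 0.208, edgeR FDR = 0.342, 0.00577 with the replicate block) and 0.74 in hypoxia (SE 0.209, edgeR FDR = 0.133, 0.00155 with the block). Within replicate numbers, HIF1A-/- exceeded WT signal 1.51-fold and 1.56-fold under normoxia, then 1.73-fold and 1.63-fold under hypoxia. In WT cells both hypoxia libraries were below the normoxia pair, with a log2 fold change of -0.38 (SE 0.208, edgeR FDR = 0.897, 0.0826 with the block), while the HIF1A-/- change of -0.26 (SE 0.207) was called by none of the 14 alternatives.

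*SPRY4* TSS signal did not overlap between genotypes either, at 256 to 300 CPM over the WT libraries and 333 to 368 over the HIF1A-/- libraries. Its size was smaller than in the gene body, with a log2 fold change of 0.27 in normoxia (SE 0.130, edgeR FDR = 0.628) and 0.36 in hypoxia (SE 0.130, edgeR FDR = 0.269, 0.0626 with the block). The pausing index of *SPRY4* was 58.3 to 86.6 in WT and 46.2 to 63.2 in HIF1A-/- libraries, and these ranges overlapped.

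*SPRY2*, the Sprouty gene with the smallest gene body differences between genotypes, gave 8.03 and 8.11 CPM in normoxic and 9.99 and 9.62 in hypoxic WT cells, against 8.71 and 7.87 in normoxic and 10.1 and 9.48 in hypoxic HIF1A-/- cells. Both hypoxia libraries were above both normoxia libraries in each genotype, but the log2 fold changes, 0.28 in WT (SE 0.197) and 0.24 in HIF1A-/- cells (SE 0.197), did not pass (edgeR FDR = 0.897 and 1). Between genotypes the *SPRY2* difference was 0.04 in normoxia (SE 0.198) and -0.00 in hypoxia (SE 0.196). *SPRY2* TSS signal was 25.5 and 28.5 CPM in normoxic and 21.6 and 20.6 in hypoxic WT cells, against 33.3 and 27.9 in normoxic and 34.1 and 23.1 in hypoxic HIF1A-/- cells. The genotypes overlapped in normoxia and not in hypoxia, where the log2 fold change was 0.43 (SE 0.275, edgeR FDR = 0.518).

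*SPRED1* encodes a Spred protein that recruits the RAS inhibitor neurofibromin to the membrane. Gene body signal of *SPRED1* was 183 and 181 CPM in normoxic and 190 and 243 in hypoxic WT cells, against 172 and 169 in normoxic and 173 and 169 in hypoxic HIF1A-/- cells. The HIF1A-/- libraries all lay below the WT libraries, by little in normoxia (log2 fold change -0.09, SE 0.139) and by -0.34 in hypoxia (SE 0.139, edgeR FDR = 0.292, 0.0703 with the replicate block). TSS signal ran the other way in replicate 1, with 101 and 93.5 CPM in the HIF1A-/- replicate 1 libraries against 46.9 to 57.6 in the other 6. In replicate 2 it also ran the other way in hypoxia, at 57.6 CPM in HIF1A-/- against 46.9 in WT cells. In normoxia replicate 2 gave 49.7 CPM in HIF1A-/- against 56.4 in WT cells. In hypoxia the TSS difference between genotypes was 0.65 on the log2 scale (SE 0.306, edgeR FDR = 0.375, 0.0639 with the block). The pausing index of *SPRED1* in hypoxia was 48.2 and 36.2 in WT and 101 and 64.0 in HIF1A-/- cells, a log2 difference of 0.96 (SE 0.320, edgeR FDR = 0.272, 0.0248 with the block). The 2 high TSS values were in the libraries with the lowest TSS totals. They came from 280 and 282 reads, against 214 to 274 reads in the other libraries. The part of depth in the *SPRED1* pausing difference was not tested.

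**Figure D3:**
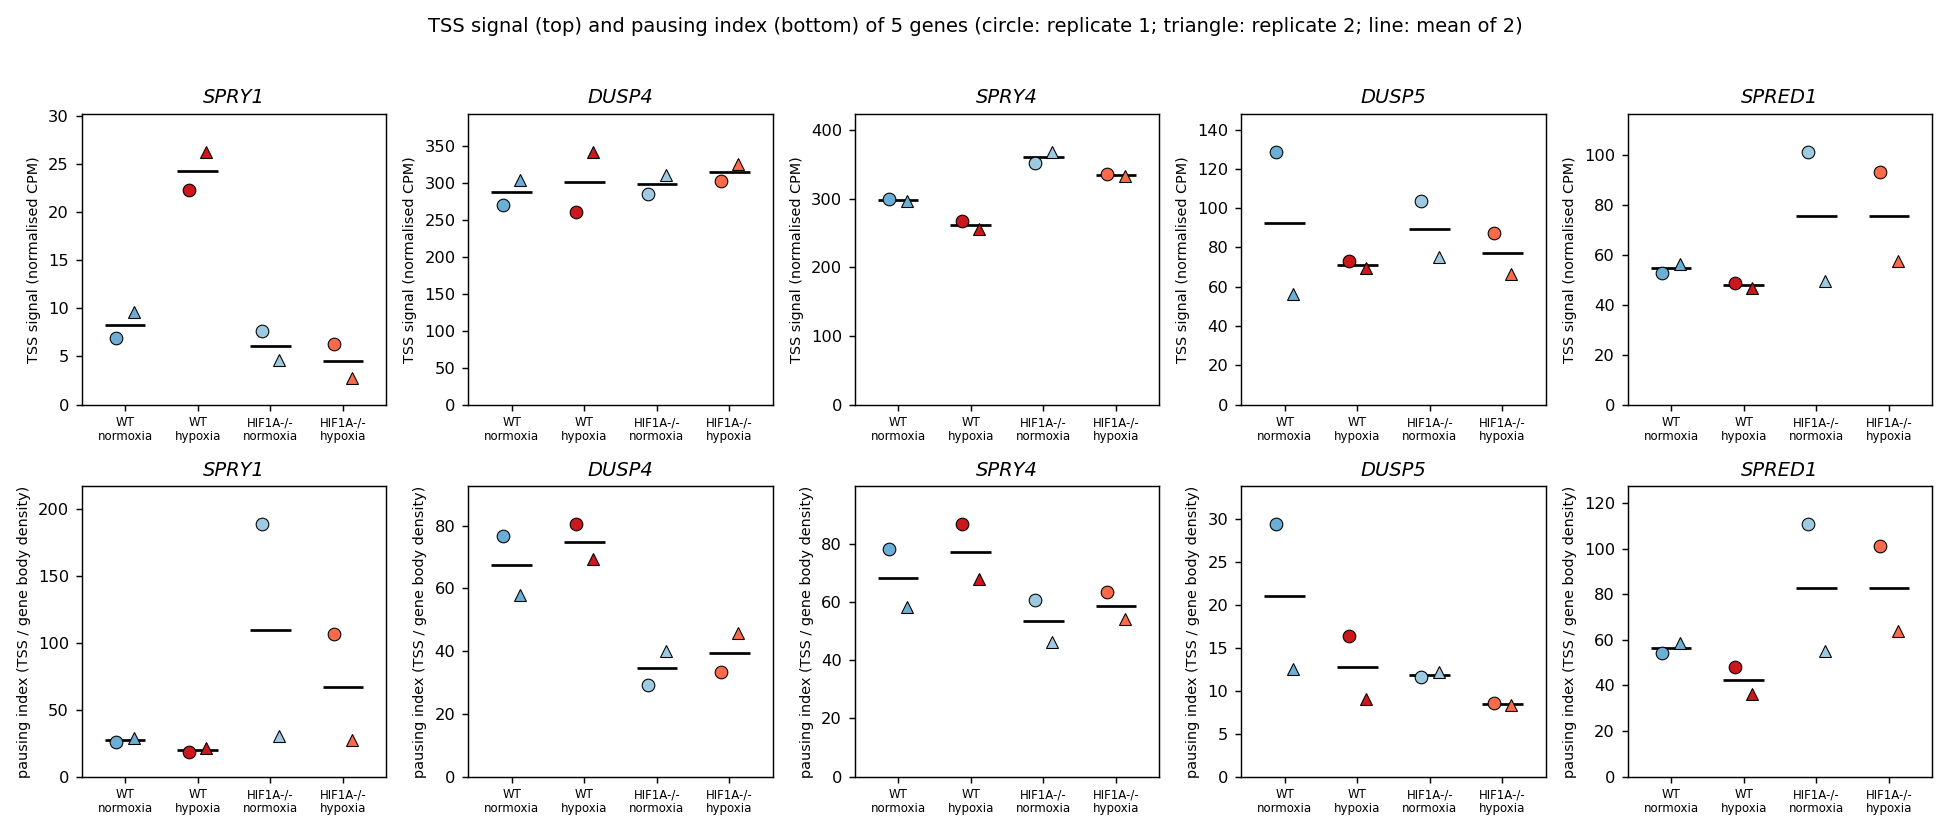
TSS signal in normalised CPM (top row) and pausing index, the ratio of TSS to gene body RPKM (bottom row), for 5 genes in the 4 groups. Circles are replicate 1, triangles replicate 2 and lines the mean of 2. *DUSP4* TSS signal overlaps between genotypes while its pausing index does not, at 57.9 to 80.4 in WT and 29.1 to 45.8 in HIF1A-/- libraries.

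Among the phosphatases, *DUSP4*, a nuclear enzyme that acts on ERK, JNK and p38, stood higher in HIF1A-/- cells. Gene body signal (chr8:29190578-29207266, minus strand) was 107 and 159 CPM in normoxic and 98.1 and 149 in hypoxic WT cells, against 296 and 235 in normoxic and 276 and 216 in hypoxic HIF1A-/- cells. No HIF1A-/- library overlapped a WT library. The log2 fold change was 1.00 in normoxia (SE 0.266, edgeR FDR = 0.196) and 0.99 in hypoxia (SE 0.266, edgeR FDR = 0.119), neither of which was called without the block. With the block the FDR values were 0.0459 and 0.0252, and by DESeq2 0.0112 and 0.00899. The size of the *DUSP4* difference depended on the replicate, at 2.78-fold in normoxia in replicate 1 and 1.48-fold in replicate 2.

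The *DUSP4* difference was seen in the gene body and not at the TSS. Of 2 distinct annotated starts of *DUSP4*, 1 lay in the counted TSS region and 1 within the gene body, 1.9 kb downstream. The gene body value, and with it the pausing index, may thus take in reads from a start outside the counted TSS region. TSS signal was 270 and 304 CPM in normoxic and 261 and 342 in hypoxic WT cells, against 285 and 311 in normoxic and 302 and 326 in hypoxic HIF1A-/- cells, with log2 fold changes between genotypes of 0.05 (SE 0.159) and 0.06 (SE 0.158). The pausing index was 76.7 and 57.9, 80.4 and 69.3, 29.1 and 40.1, and 33.2 and 45.8 in the same order of groups. The log2 difference in pausing index was -0.97 in normoxia (SE 0.241, edgeR FDR = 0.326, 0.0503 with the block) and -0.92 in hypoxia (SE 0.241, edgeR FDR = 0.166, 0.0229 with the block). No pausing comparison of the 9 genes tested was called without the block, against 0.669% of 14494 genes called in HIF1A-/- against WT cells in hypoxia, and 2 of the 9 (*DUSP4* and *SPRED1*) had an unadjusted p under 0.05 there, against 12.2%. With the block the same 2 were called there, against 6.62%, and *DUSP4* alone in normoxia, against 0.731%. Hypoxia left *DUSP4* gene body signal within the spread of its replicates, with log2 fold changes of -0.10 in WT (SE 0.264) and -0.11 in HIF1A-/- cells (SE 0.263).

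*DUSP5*, a nuclear phosphatase selective for ERK, gave 101 and 103 CPM in normoxic and 103 and 177 in hypoxic WT cells, against 206 and 143 in normoxic and 234 and 184 in hypoxic HIF1A-/- cells. The HIF1A-/- libraries were above the WT libraries at each oxygen level, with log2 fold changes of 0.78 (SE 0.277, edgeR FDR = 0.397) and 0.58 (SE 0.276, edgeR FDR = 0.364), and neither was called with the block (0.131 and 0.161). *DUSP5* TSS signal was most variable in WT normoxia, at 129 and 56.1 CPM.

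*DUSP6* gave 49.0 and 87.0 CPM in normoxic and 49.5 and 72.5 in hypoxic WT cells, against 94.4 and 80.0 in normoxic and 81.3 and 78.1 in hypoxic HIF1A-/- cells. The genotypes overlapped in normoxia and not in hypoxia, with log2 fold changes of 0.36 (SE 0.280) and 0.38 (SE 0.280, edgeR FDR = 0.556). Its pausing index, from 5.83 to 8.48 over the 8 libraries, was the lowest by group mean among the 9 genes with TSS signal.

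*DUSP1*, an immediate early gene whose product acts on p38, JNK and ERK, gave 15.7 and 18.9 CPM in normoxic and 21.1 and 22.4 in hypoxic WT cells, against 19.95 and 14.7 in normoxic and 21.2 and 15.5 in hypoxic HIF1A-/- cells. The WT hypoxia libraries were above the WT normoxia libraries, with a log2 fold change of 0.33 (SE 0.230, edgeR FDR = 0.897), and the HIF1A-/- libraries overlapped. *DUSP1* TSS signal was 328 to 369 CPM in the WT and 279 to 324 in the HIF1A-/- libraries, which did not overlap, with log2 fold changes of -0.27 in normoxia (SE 0.136, edgeR FDR = 0.643) and -0.16 in hypoxia (SE 0.135, edgeR FDR = 0.643). An annotated antisense RNA overlaps *DUSP1* and another *DUSP6*, and the libraries are labelled as strand-specific.

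*DUSP10*, which encodes a phosphatase for p38 and JNK, was thinly transcribed. It gave 5.80 and 7.67 CPM in normoxic and 7.50 and 7.05 in hypoxic WT cells, against 2.78 and 10.4 in normoxic and 4.81 and 11.9 in hypoxic HIF1A-/- cells. In the HIF1A-/- cells replicate 2 was above replicate 1 at both oxygen levels, and no *DUSP10* comparison was called in the gene body, at the TSS or in the pausing index.

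Read over the family, the number of calls in WT hypoxia depended on the test. In WT hypoxia 0 of 10 gene bodies were called by edgeR without the block, against 0.431% of all gene bodies, while 2 had an unadjusted p under 0.05 (*SPRY1* and *PTPRR*, against 4.61%). DESeq2 called the same 2, against 1.05% of all gene bodies, and the replicate block called 3, with *SPRY4* added, against 5.51%. The median log2 fold change of the 10 was 0.27, beside -0.02 over all gene bodies tested. In HIF1A-/- hypoxia 0 of 10 were called by edgeR, as for all gene bodies (0%), and none had an unadjusted p under 0.05, against 2.08%. DESeq2 called none there, against 0.0479% of all gene bodies, and the median was 0.04 beside 0.00. In HIF1A-/- against WT cells in normoxia 0 of 10 were called, against 1.78% of all gene bodies, with 4 at an unadjusted p under 0.05 (*DUSP4*, *DUSP5*, *SPRY4* and *SPRY1*, against 9%), 1 called by DESeq2 (*DUSP4*, against 3.76%) and 3 with the block (*DUSP4*, *SPRY4* and *SPRY1*, against 10.3%). The difference between genotypes in the hypoxia response was called by edgeR for 0 of 10, against 0.0539%, by DESeq2 for none, against 0.408%, and by the block for none, against 0.384%, with 2 at an unadjusted p under 0.05 (*SPRY1* and *PTPRR*, against 1.36%).

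By the plainer count of libraries that do not overlap, 4 of 10 gene bodies separated all 4 HIF1A-/- from all 4 WT libraries (*DUSP4* and *SPRY4* higher, *SPRY1* and *SPRED1* lower), against 15.7% of all gene bodies. At the TSS 2 of 9 did (*SPRY4* higher and *DUSP1* lower), against 12.7%. Between WT hypoxia and WT normoxia 6 of 10 gene bodies did not overlap, against 37.7%, and between the HIF1A-/- groups 1 of 10 (*SPRY2*), against 23.4%. The comparisons between genotypes in normoxia and in hypoxia and the 2 hypoxia responses share libraries, so their values are given side by side and not as separate evidence.

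The rest of the pathway was read from lists of its parts. Without the block, edgeR called none of the 7 other MAP kinase phosphatases tested, the 2 other Sprouty and Spred genes tested, the 17 genes of the RAS-RAF-MEK-ERK cascade or the 14 of the JNK and p38 cascade in any gene body comparison. Over all gene bodies it called 0% to 4.26% in the 5 comparisons. At most 1 of the 7 phosphatases and none of the 2 Sprouty and Spred genes had an unadjusted p under 0.05 in any comparison, against 1.36% to 15.7%. DESeq2 called none of either list, against 0.0479% to 7.82%. In HIF1A-/- against WT cells in hypoxia, 4 of the 17 cascade genes and 3 of the 14 JNK and p38 genes had an unadjusted p under 0.05, beside the 15.7% of all gene bodies, and DESeq2 called 2 and 1, beside its 7.82%. The median log2 fold change in that comparison was 0.08 for the cascade genes, -0.35 for the other phosphatases and 0.00 for all gene bodies.

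With the replicate block, which called 28.2% of all gene bodies in that comparison, 3 of the 7 other phosphatases were called (*DUSP8* higher, *DUSP16* and *PTPN7* lower), 4 of the 17 cascade genes (*MAP2K2* higher, *MAP2K1*, *SOS1* and *RASA1* lower) and 8 of the 14 JNK and p38 genes, 5 higher and 3 lower. *MAP2K1* and *MAP2K2*, which encode the kinases MEK1 and MEK2, had log2 differences of -0.53 and 0.65 (edgeR FDR = 0.161 and 0.152, 0.00391 and 0.00339 with the block). In normoxia the block called *SPRED2* and *MAPK11* higher and *RASA1* lower, against 10.3%. In WT hypoxia 2 cascade genes and 1 JNK and p38 gene had an unadjusted p under 0.05, all lower, beside the 4.61% of all gene bodies. The block called *MAP2K1* higher and *MAP2K2* and *MAPK14* lower there, beside 5.51%. The genes called only with the block are named here after their values were seen.

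Other genes of the pathway encode the growth factors that feed the cascade. Of 10 EGF receptor family members and ligands, 2 were lower and 1 was higher in HIF1A-/- than in WT cells at each oxygen level, against 1.05% lower and 0.725% higher over all gene bodies in normoxia and 2.79% and 1.47% in hypoxia. With the block 3 were lower and 1 was higher in normoxia, against 6.39% and 3.93%, and 4 were lower and 2 higher in hypoxia, against 15.1% and 13.1%. DESeq2 called 3 lower and 1 higher in normoxia, against 1.99% and 1.77%, and 3 lower and 2 higher in hypoxia, against 4.74% and 3.08%. *EREG*, the gene for the EGF receptor ligand epiregulin, gave 541 and 722 CPM in normoxic and 444 and 633 in hypoxic WT cells, against 112 and 118 in normoxic and 109 and 106 in hypoxic HIF1A-/- cells. It was lower in HIF1A-/- cells at both oxygen levels (log2 fold change -2.46 in normoxia, edgeR FDR = 0.00175, and -2.32 in hypoxia, edgeR FDR = 0.00180). *AREG*, for the ligand amphiregulin, ran from 6.87 to 14.2 CPM in WT and from 2.15 to 3.04 in HIF1A-/- libraries (log2 fold change -2.08 in normoxia, edgeR FDR = 0.0477, and -1.89 in hypoxia, edgeR FDR = 0.0450). *EGFR*, their receptor, ran from 138 to 177 CPM in WT and from 211 to 324 in HIF1A-/- libraries (0.89, edgeR FDR = 0.0844, and 0.78, edgeR FDR = 0.0809). The *EREG* calls held without any single library, whereas the *AREG* calls were lost without any 1 of the 4 normoxia libraries (FDR 0.110 to 0.376) in normoxia and, in hypoxia, without WT replicate 2 or either HIF1A-/- replicate of that oxygen level (0.130 to 0.304). The *EGFR* calls were lost without 6 of the 8 libraries in normoxia (highest FDR 0.469, without WT normoxia replicate 1) and 5 of the 8 in hypoxia (highest FDR 0.402, without HIF1A-/- hypoxia replicate 1). *BTC*, for the ligand betacellulin, ran from 11.4 to 21.7 CPM in WT and from 4.31 to 8.12 in HIF1A-/- libraries, and was called with the block only (log2 fold change -1.63 in normoxia, edgeR FDR = 0.145, 0.00152 with the block, and -1.25 in hypoxia, edgeR FDR = 0.173, 0.00315 with the block). The other calls made by the block alone were *ERBB2* higher (edgeR FDR = 0.152, 0.00833 with the block) and *ERBB4* lower (edgeR FDR = 0.671, 0.0792 with the block) in hypoxia. The ligand genes *EREG*, *AREG* and *BTC* were lower, and *DUSP4* and *SPRY4* signal higher, in the same HIF1A-/- libraries, and the part of either in the other was not tested.

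Of 23 ERK-induced transcription factor and early response genes tested, *FOSL2*, which encodes an AP-1 subunit, was the one called in the gene body without the block. It gave 46.6 and 40.7 CPM in normoxic and 117 and 134 in hypoxic WT cells, against 122 and 123 in normoxic and 148 and 142 in hypoxic HIF1A-/- cells. *FOSL2* rose in WT hypoxia (log2 fold change 1.53, edgeR FDR = 0.00633) and was higher in HIF1A-/- than in WT normoxia (1.49, edgeR FDR = 0.00232), the first of these calls being lost without WT normoxia replicate 1 (0.116) or replicate 2 (0.155). The difference between genotypes in the *FOSL2* hypoxia response was 1.28 on the log2 scale (edgeR FDR = 0.156, 0.0168 with the block). Over the 23 genes the block called 2 in WT hypoxia (*FOSL2* and *FOSB*, higher), against 5.51% of all gene bodies. In HIF1A-/- against WT cells in normoxia the block called 2 (*FOSL2* and *CCND1*, higher), against 10.3%. In hypoxia that comparison gave 6 block calls, against 28.2%, with *CCND1* and *EGR3* higher and *FOSB*, *ELK3*, *ETV5* and *ETV1* lower. For *FOSL2* the WT hypoxia libraries lay near those of HIF1A-/- normoxia, whereas *SPRY1* and *PTPRR* were high in WT hypoxia alone. At the TSS, *EREG* was also lower in HIF1A-/- cells (log2 fold change -1.32 in normoxia, edgeR FDR = 0.00292, and -1.34 in hypoxia, edgeR FDR = 0.00200), and *EGR1*, an immediate early factor, was higher in hypoxia (1.35, edgeR FDR = 0.0592, with FDR 0.137 to 0.394 without any 1 of the 4 hypoxia libraries). The pausing index of *EREG* was higher in HIF1A-/- than in WT cells in hypoxia (log2 difference 0.98, edgeR FDR = 0.0790), a call lost without any 1 of 5 libraries (highest FDR 0.706, without HIF1A-/- hypoxia replicate 1).

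**Figure D4:**
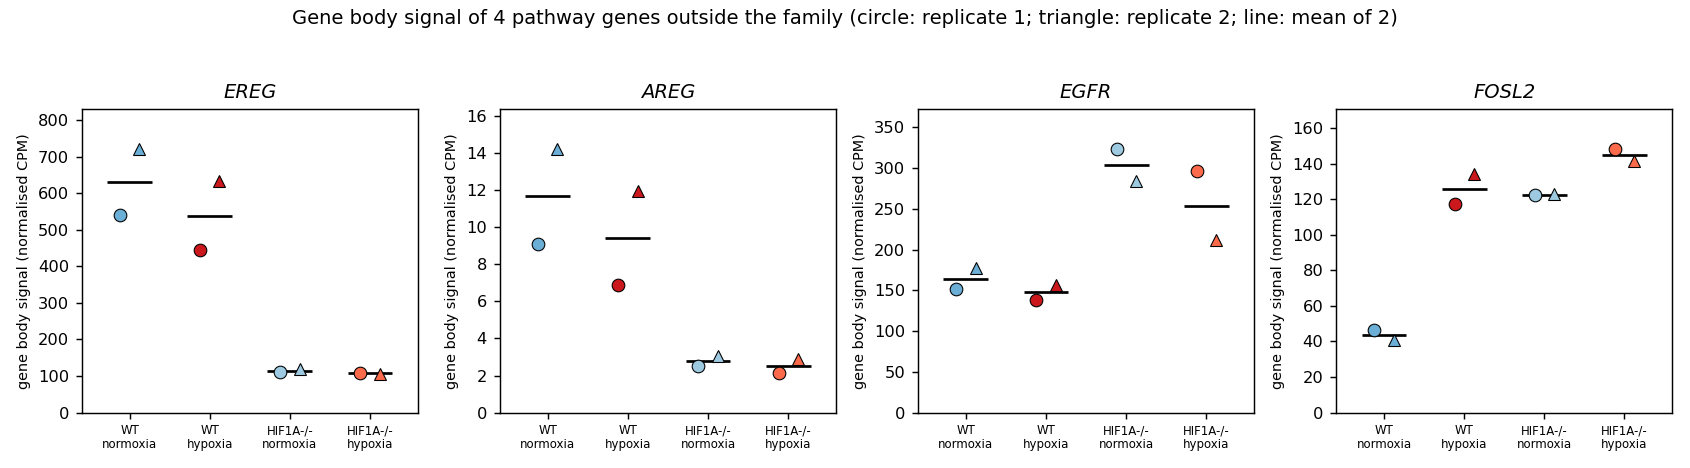
Gene body signal in normalised CPM (vertical axes, linear from 0) of 2 EGF receptor ligands, their receptor and an AP-1 subunit in the 4 groups; circles are replicate 1, triangles replicate 2 and lines the mean of 2. *EREG* and *AREG* are lower and *EGFR* higher in all HIF1A-/- libraries, and *FOSL2* is low in WT normoxia only.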

How the data were processed

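PRO-seq was analysed in 8 libraries of HCT116 cells, 2 per genotype and oxygen level, grouped by the sample labels. The deposited values are raw read counts per gene, made by the authors by trimming, unspliced alignment to GRCh37 with HISAT2 2.1.0, filtering on mapping quality and counting with featureCounts (Subread 1.6.2). The authors kept 1 TSS and the shortest gene body per gene, so that other start sites of a gene are not separated. From these counts, genes above 0.5 CPM in at least 2 libraries were kept (16686 gene bodies, 15212 TSS regions, 14494 with both). TMM factors were applied, and the quasi-likelihood test of edgeR 4.0.16 (R 4.3.3) was run in 1 fit of the 4 group means per region, with Benjamini-Hochberg adjustment over all genes and a call at FDR 10%. The pausing index was tested in 1 edgeR fit of 16 columns, the TSS and gene body counts of each library, with library as a term. Levels are CPM on TMM-scaled totals. RPKM divides them by region length.

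Replicate numbers in the labels were taken to pair the libraries, since same-numbered libraries deviated together in all 6 pairs of groups (r across genes 0.501 to 0.848 for gene bodies, 0.218 to 0.522 for TSS regions). Alternatives were the replicate block, DESeq2 1.42.0, library totals, other filters on low counts and leaving out each library. On simulated data, 55% of 2-fold and 98% of 4-fold changes (a log2 of 1 and 2) were recovered in a WT hypoxia comparison of 16484 gene bodies. The changes, 100 of each size, were placed only in gene bodies with a mean of at least 100 reads per library. In the same comparison 20 unchanged gene bodies were called. Recovery at read counts as low as those of *SPRY1* (5 to 173 gene body reads) was not tested separately. Nor was recovery with deviations shared by same-numbered libraries. The text names the 10 genes always, other listed genes where called (at most 4 per direction and list), and the 3 most alike gene bodies for each of the 10 genes that was called. The genes and lists were chosen with earlier results of these data known. Floors of 3 counts cover counting error only. Not all upstream windows are reported here.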

Additional observations from a re-analysis of the deposited data

How the results depend on the processing

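No log2 fold change of the 10 genes that was called reversed its sign under any alternative. Counts of called genes moved as follows. Gene bodies in WT hypoxia went from 0 called to 2 with DESeq2, 3 with the replicate block and 3 with DESeq2 and the block (1.05%, 5.51% and 5.65% of all gene bodies). The difference between genotypes in the hypoxia response went from 0 to 1 with DESeq2 and the block (0.719%). HIF1A-/- against WT in normoxia went from 0 to 1 with DESeq2, 3 with the block and 2 with DESeq2 and the block (3.76%, 10.3% and 9.35%). HIF1A-/- against WT in hypoxia went from 2 to 4 with DESeq2 (7.82%), 1 with library totals (3.89%), 4 with no filter on low counts (3.43%), 1 with CPM above 0.5 in all 8 libraries (3.93%, *SPRY1* then not tested), 5 with the block (28.2%) and 5 with DESeq2 and the block (23.2%), and ranged from 0 to 4 when single libraries were left out. The *SPRY1* gene body call was lost without WT hypoxia replicate 2 (FDR = 0.114) or without HIF1A-/- hypoxia replicate 1 (FDR = 0.127), while its log2 fold change stayed between -4.34 and -3.53. The *PTPRR* call was lost without WT normoxia replicate 1 (0.118), WT normoxia replicate 2 (0.129), WT hypoxia replicate 2 (0.488), HIF1A-/- hypoxia replicate 1 (0.401) or HIF1A-/- hypoxia replicate 2 (0.164). TSS regions in WT hypoxia went from 0 to 1 with no filter and 1 with the block (0.356% and 1.01% of all TSS regions). In HIF1A-/- against WT in hypoxia they went from 1 to 2 with no filter and 3 with the block (6.01% and 14.4%), and ranged from 0 to 1 with single libraries left out. Pausing indices in HIF1A-/- against WT in normoxia went from 0 to 1 with no filter and 1 with the block (0.655% and 0.731% of all pausing indices), and in hypoxia from 0 to 2 with no filter, 2 with the block (2.87% and 6.62%), and 0 to 2 with single libraries left out. DESeq2 was not run on the pausing index. The causes were not tested. Without the block that hypoxia comparison called 4.26% of all gene bodies. Fits that leave out a library give 1 group a single library, assumed to vary like the others. Depth limits *SPRY1* in HIF1A-/- cells (5 to 20 gene body reads) and *PTPRR* (31 to 429) most.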
